A study of Mus musculus with 7 samples.

Results

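Chromatin regions with a strong ATAC-seq peak in mouse pancreatic epithelium 1 day after caerulein injury, and no peak before it or at days 7 and 28, were examined. Overlapping peaks of 4 ATAC-seq peak lists (at least 1 shared bp, chromosomes 1 to 19 and X) were joined into 223972 merged regions. A region was a member when it held a peak in the day 1 list, none in the untreated, day 7 or day 28 list, and a day 1 fold enrichment of at least 6. By this rule 10839 regions were members, 4.84% of all merged regions, 7.1% of the 152556 with a day 1 peak and 13.4% of the 81164 whose day 1 fold was 6 or more. Without the day 7 list 22816 regions would meet the rule. Fold enrichment is the authors' value for the pileup of reads at the summit of a peak over the background of its list. The values match this ratio with 1 added to the pileup and 1 to the background. Presence in a list and the day 1 fold chose the members, so both are given as description and neither was tested. The absence of a peak means a signal below the calling limit of that list, not closed chromatin.

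All cells came from C57BL/6J wild-type mice. Pancreata were taken from untreated mice or 1, 7 or 28 days after acute inflammation had been induced with caerulein, a cholecystokinin analogue that overstimulates acinar cells, and epithelial cells were purified from the dissociated tissue. ATAC-seq then marked open chromatin with the Tn5 transposase, which inserts sequencing adapters where DNA is not covered by nucleosomes. Each of the 4 groups was 1 library, and the age of the mice, any pooling of animals and the marker used for purification were not stated in the labels used. No difference below therefore has a replicate check, and no p-value was computed. A further 3 libraries, of DCLK1-positive cells from Dclk1-DTR-ZsGreen mice, were not analysed here.

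Acinar cells, which make digestive enzymes, form most of the exocrine pancreas. In acute pancreatitis they lower their enzyme programme and take on features of duct cells for a time, while stellate cells and fibroblasts lay down matrix and leukocytes enter the tissue. Distal elements such as enhancers change more with cell state than promoters do, and factors of the AP-1 and RUNX families bind many of the elements that open after tissue injury.

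A few members lay on annotated promoters, and there the RefSeq sequence (GRCm38.p6) can be read. The windows of 4 genes are shown as examples in which at least 1 motif match lies inside the member. They were chosen after their values were seen and are not the only such windows. The member covers the whole window at Havcr2 and Il33, 215 of 300 bases at Sele and 175 at Milr1. Each window runs 5′ to 3′ on the plus strand from 250 bases before the annotated start to 50 after it, and capitals mark matches to the AP-1, TEAD, RUNX, NF-kB, STAT, ETS and CEBP motifs searched, each given with its letters further on. The Havcr2 window is chr11:46454681-46454980, that of Sele chr1:164047984-164048283, that of Il33 chr19:29945540-29945839 and that of Milr1 chr11:106750976-106751275.
Havcr2: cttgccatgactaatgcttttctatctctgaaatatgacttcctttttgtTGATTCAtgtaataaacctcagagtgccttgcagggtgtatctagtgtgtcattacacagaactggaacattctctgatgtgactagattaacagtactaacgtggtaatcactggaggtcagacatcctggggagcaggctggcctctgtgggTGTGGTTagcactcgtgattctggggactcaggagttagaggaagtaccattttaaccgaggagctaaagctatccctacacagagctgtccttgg
Sele: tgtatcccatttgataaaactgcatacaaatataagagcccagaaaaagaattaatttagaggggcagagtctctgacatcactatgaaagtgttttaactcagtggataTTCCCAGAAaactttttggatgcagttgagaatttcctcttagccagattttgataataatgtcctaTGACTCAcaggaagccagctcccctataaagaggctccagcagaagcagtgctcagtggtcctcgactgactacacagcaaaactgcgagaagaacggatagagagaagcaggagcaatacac
Il33: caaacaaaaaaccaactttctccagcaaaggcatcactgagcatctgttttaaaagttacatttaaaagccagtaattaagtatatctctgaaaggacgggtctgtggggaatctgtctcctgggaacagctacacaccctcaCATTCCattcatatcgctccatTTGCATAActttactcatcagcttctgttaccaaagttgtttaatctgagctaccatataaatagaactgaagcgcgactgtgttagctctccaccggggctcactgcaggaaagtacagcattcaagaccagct
Milr1: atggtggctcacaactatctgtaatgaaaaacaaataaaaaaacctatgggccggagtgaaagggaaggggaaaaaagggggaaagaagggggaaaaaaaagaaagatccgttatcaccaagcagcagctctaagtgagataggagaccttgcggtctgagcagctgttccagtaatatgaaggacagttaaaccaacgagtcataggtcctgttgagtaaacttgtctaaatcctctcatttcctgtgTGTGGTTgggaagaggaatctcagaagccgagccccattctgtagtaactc

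Havcr2 encodes TIM-3, an inhibitory receptor of T cells and macrophages. In its window the AP-1 match TGATTCA began 200 bases before the start and the RUNX match TGTGGTT 46 bases before it, and the member over it had a fold of 10.2. Sele encodes E-selectin, through which activated endothelium catches leukocytes. Its AP-1 match TGACTCA began 73 bases and its STAT match TTCCCAGAA 140 bases before the start, under a member of fold 7.88. Il33 encodes an alarmin cytokine, and the start shown lies inside the gene span. There the TEAD match CATTCC began 107 bases and the CEBP match TTGCATAA 85 bases before the start, with a fold of 9.61. Milr1 encodes an inhibitory receptor of mast cells. Its RUNX match TGTGGTT began 1 base before the start, with a fold of 12.3. The starts shown for Sele and Milr1 are also not the end of the gene span, while that of Havcr2 is.

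Members also overlapped 3 of 1005 annotated miRNA hairpins, 0.299%, and the mature sequences are shown because miRNAs are named by them. Capitals mark the seed, bases 2 to 8.
mmu-miR-155-5p: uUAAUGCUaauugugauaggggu
mmu-miR-155-3p: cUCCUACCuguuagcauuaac
mmu-miR-21c: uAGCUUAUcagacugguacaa
mmu-miR-3962: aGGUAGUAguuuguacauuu

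The 4 seeds differ from one another. The member over Mir155, whose miR-155-5p acts in activated lymphocytes and macrophages, was chr16:84714060-84714385 with a fold of 10.4. Within 50 kb of this hairpin lay 3 members, and 3 untreated, 14 day 1, 6 day 7 and 4 day 28 peaks were listed there. Mir21c was overlapped only at its edge, by a member of fold 10.4 that began at chr8:128278215. Its hairpin is chr8:128278148-128278225, and the mature sequence shown, chr8:128278188-128278208, lies outside the member. Mir3962 was overlapped by a member of fold 11.2. The members at Mir155 and Mir3962 covered the whole hairpin.

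The libraries differed in depth and in enrichment. The untreated, day 1, day 7 and day 28 lists held 140286, 164684, 145337 and 130149 peaks. The background pileup recovered from the authors' values was 5.07 and 5.35 in the untreated and day 1 libraries but 2.72 and 2.52 in those of days 7 and 28, and the lowest fold listed was 2.47, 2.36, 2.95 and 2.84 in this order. In the 59902 regions common to the lists the median of fold minus 1 was 7.40, 16.6, 15.1 and 11.5. Whether a member lacked a peak elsewhere because of these differences was not tested. The labelled epithelial identity was checked against markers. Of 6 epithelial markers 6, 5, 6 and 5 had a peak within 1 kb of a gene start in time order, Epcam lacking one at days 1 and 28, and the peaks linked to them numbered 107, 48, 88 and 92. The highest fold of these start peaks was 71.3 in the untreated and 9.93 in the day 1 list at Cdh1. It was 85.2 and 10.7 at Krt8, 102.5 and 18.4 at Cldn3, and 34.8 and 7.72 at Krt18. At Cldn4 it differed little, at 21.1 and 18.9. The day 1 library was nevertheless the more enriched in common regions. Among acinar markers 5, 3, 5 and 4 of 5 had a start peak, Cpa1 and Cel lacking one at day 1 and Cela1 at day 28. From the untreated to the day 1 list the fold fell from 46.0 to 7.41 at Ptf1a and from 41.5 to 14.3 at Rbpjl. At Cela1 it rose from 3.13 to 29.9. Among ductal markers 4, 2, 4 and 3 of 4 had a start peak. The fold was 54.2 in the untreated and 73.9 in the day 1 list at Sox9, and 23.6 and 9.14 at Krt19.

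Markers of other cells were present too. For fibroblasts and stellate cells 7, 8, 8 and 8 of 8 markers had a start peak, and the peaks linked to them numbered 90 in the untreated and 160 in the day 1 list, with 128 and 102 at days 7 and 28. The fold of the start peak was highest at day 1 at Col1a2, Col3a1 and Pdgfrb, where it was 59.7, 24.3 and 65.2. At Col1a1 it was 17.3 in the untreated, 5.36 in the day 1 and 51.3 in the day 7 list. At Pdgfra it was 12.4 in the untreated and 11.5 in the day 1 list. At Dcn, Lum and Thy1 it was higher at day 7 than at day 1. Members numbered 15, at 6 of these 8 genes. Among all protein-coding genes 20.5% had a member, and 6.48% of the linked day 1 regions were members. Markers with more day 1 peaks had more chances to hold a member, so member counts do not compare the cell types. For leukocytes 1, 3, 1 and 1 of 7 markers had a start peak, with 15, 29, 18 and 12 linked peaks and 4 members, and Ptprc, Itgam, Cd3e and S100a8 lacked a start peak at day 1. Endothelial markers had start peaks at 4, 3, 2 and 2 of 4 genes, with 47, 57, 56 and 33 linked peaks and 3 members. Pericyte markers had start peaks at 4 of 4 genes in every list, with 39, 46, 42 and 36 linked peaks and 2 members. Mesothelial markers had start peaks at 2, 2, 3 and 1 of 3 genes, with 24, 57, 44 and 27 linked peaks and 0 members. Schwann cell markers had start peaks at 3, 2, 2 and 2 of 3 genes, with 10, 7, 8 and 7 linked peaks and 1 member. Endocrine markers had start peaks at 1 of 4 genes in every list, with 9, 10, 9 and 9 linked peaks and 0 members. The part of these cells in the member counts was not tested, and in bulk libraries a change in the mixture of cells and a change within cells cannot be told apart.

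The members were moderate peaks. Their day 1 fold ran from 6.15 to 49.8 with a median of 8.35 and quartiles of 6.93 and 11.2, and their summit pileup from 38 to 315 reads with a median of 52. Folds of at least 10 were reached by 3573 members, of at least 20 by 438, of at least 30 by 57 and of at least 40 by 4. Each member held a single day 1 peak, and widths ran from 155 to 2620 bp with a median of 416 bp. For orientation, 11855 regions that days 1 and 7 alone shared, with a day 1 fold of at least 6, had a median day 1 fold of 11.7 and a median width of 539 bp. The 48769 such regions present in all 4 lists had a median of 24.6 and a width of 1120 bp.

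The threshold cut through a dense part of the distribution. Just inside it 589 regions had a fold of 6.15 (38 reads at the summit), 479 had 6.30 and 476 had 6.46. Just outside, 607 day 1 regions without a peak elsewhere had 5.99, 655 had 5.83 and 707 had 5.67. In genome order the 3 members at the inner edge lay near Eya1 and at a pair of sites without a gene within 50 kb, and the 3 regions at the outer edge lay near Sulf1, Mcm3 and Tram2. In all 40617 day 1 regions without a peak in another list fell below the threshold, with a median fold of 3.78.

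Members lay away from gene starts. The summit was within 1 kb of a protein-coding gene start in 155 members, 1.43% (exact binomial 95% interval 1.22 to 1.67; intervals here cover counting error only). The share was 4.10% (3.91 to 4.30) among the weaker regions of day 1 alone, 2.32% (2.06 to 2.61) among those of days 1 and 7, 25.5% (25.1 to 25.9) among those of all lists and 11.0% among all day 1 regions. The median distance from a member to the nearest gene start was 40.5 kb, against 38.8 kb for regions of days 1 and 7 and 12.3 kb for those of all 4 lists. Over 100 kb from any start lay 26.6% of members and 10.9% of the regions of all lists. Of 1402 members within 10 kb of a start with a known strand, 680 lay before it and 722 at or past it, so neither side was much favoured.

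**Figure D1:**
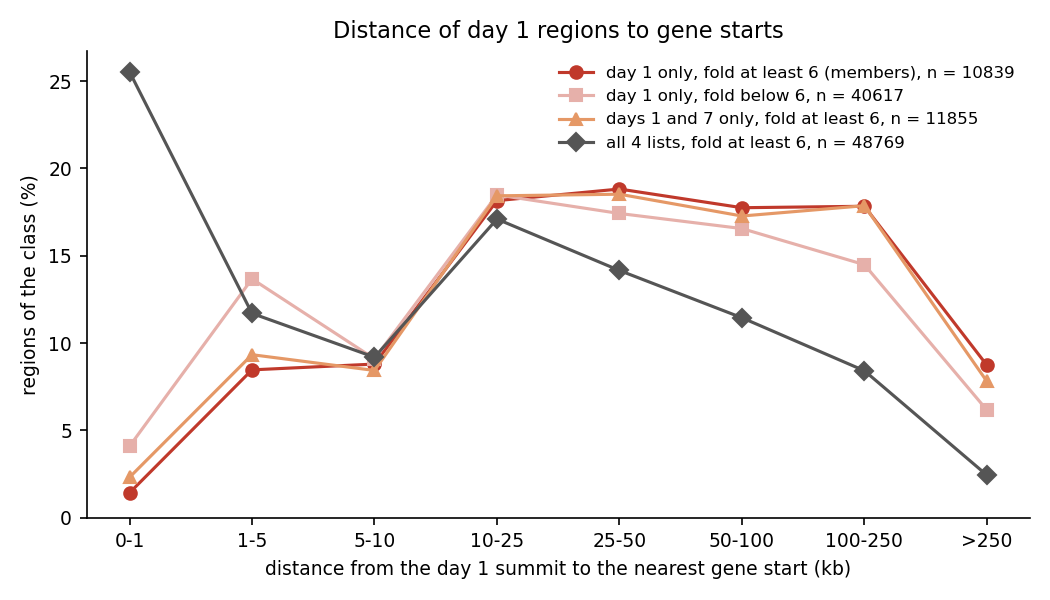
Share of regions (percent of each class, y axis) by distance from the day 1 summit to the nearest protein-coding gene start (kb, x axis) for the 10839 members, weaker regions of day 1 alone, regions of days 1 and 7, and regions of all 4 lists. The members' line starts at 1.43% within 1 kb and lies close to that of days 1 and 7, while regions of all lists start at 25.5%.

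Inside a protein-coding gene span lay 5519 members, 50.9% (49.97 to 51.9), against 56.1% of all day 1 regions and 48.7% (47.8 to 49.6) of the regions of days 1 and 7. Exons and introns were not separated, since the annotation used gives gene spans. A member's nearest untreated summit was a median of 5.27 kb away, and 65.9% of members had one within 10 kb, close to the 65.6% of regions of days 1 and 7. A region of all 4 lists stood within 10 kb of 54.6% of members. In 1909 members, 17.6%, the edge of a peak of another list came within 500 bp, and in 250 within 100 bp. The rule excludes overlap with a peak of another list, so that members stood apart from such peaks is no result. The median distance to the closest one was 2365 bp, and it was at most 1000 bp in 29.5% of members.

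The strongest member, of fold 49.8, was chr4:40795579-40796568, 8.73 kb from B4galt1, a galactosyltransferase gene of the Golgi. Next came members inside Mtmr7 (46.6 fold), which encodes a myotubularin phosphatase, 32.8 kb from 2410004P03Rik (42.7 fold) and 21.7 kb from Tent5a (41.4 fold), a poly(A) polymerase gene. The synaptic gene Shisa6 held one of 39.7 fold. A member of 39.1 fold at chr9:32784522-32785928 lay 27.2 kb from Ets1, the founding gene of the ETS transcription factors. The sialyltransferase gene St6gal1 held a member of 36.9 fold and the tyrosine phosphatase gene Ptpre one of 36.2 fold. Between 35.6 and 32.8 fold followed Lrrc4c, Pdzrn3, the cell polarity gene Pard3, Ddah1, the integrin activator gene Fermt2, Camta1, Gtf2ird1, Ms4a6d, Wwox, Prtg, Zzef1, Mmd, the bZIP factor gene Creb5, Fgd5, the phosphofructokinase gene Pfkl, Adcy1 and the centrosome gene Nin.

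These 25 members pointed to 25 different genes. Of them 15 lay inside the gene and 0 within 1 kb of a start, and of the 25 strongest members of any position 6 had no gene within 50 kb. The distance to the closest peak of another list was 88 bp near Fermt2, 168 bp in Pdzrn3 and 220 bp in Mtmr7, and 50.7 kb in Zzef1. No gene was linked to more than 1 of the 25.

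Across the genome 8442 members had a protein-coding gene within 50 kb and were linked to the nearest one. They reached 4425 of 21631 genes, 20.5%, or 6880 genes without the day 7 list. A single member was linked to 2613 of these genes, 5 or more to 290 and 10 or more to 35, and the 290 genes held 1985 members. Another member lay within 50 kb of 63.0% of members, against 63.6% among the regions of days 1 and 7. Joined wherever summits were at most 50 kb apart, the members formed 6408 runs, of which 4010 held 1 member, 2168 held 2 to 4 and 230 held 5 or more.

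The 12 genes with the most members had many day 1 regions, from 50 at Csgalnact1 to 169 at Slit3. Of these regions between 8.39% at Rbms3 and 28.0% at Csgalnact1 were members, with 25.5% at Tnc, against 6.48% over all protein-coding genes. The genes were chosen by their number of members, which favours high shares, so the distance from 6.48% is description only. Slit3, which encodes a secreted guidance ligand of Robo receptors, had 25 members, and Tnc, which encodes the matrix glycoprotein tenascin-C, had 24. Sox5, a SOX transcription factor gene, had 17 and Bmper, a secreted regulator of BMP signalling, had 16. Ebf1, a transcription factor gene of B cells and mesenchymal cells, had 15. Csgalnact1, an enzyme gene of chondroitin sulphate synthesis, had 14, as had Smoc2, a matricellular protein gene, and Celf2, an RNA-binding protein gene. Creb5, the RNA-binding protein gene Rbms3 and the calcium channel gene Cacna1c had 13 each. Ltbp1, whose product stores latent TGF-beta in the matrix, had 12.

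Peak numbers at these genes were highest at day 1 in each case, as far as a description chosen on day 1 peaks can show. Over all protein-coding genes linked peaks were also most numerous at day 1, at 141679. The untreated, day 7 and day 28 lists had 126115, 127142 and 116497. Slit3 had 72 linked peaks before treatment and then 174, 107 and 75 at days 1, 7 and 28, the order kept for the genes that follow. Bmper had 16, 79, 41 and 24, and Ebf1 had 38, 113, 76 and 45. At these 3 genes the day 7 number lay between the untreated and the day 1 number. Smoc2 had 22, 56, 21 and 24, and Csgalnact1 had 16, 52, 29 and 15, so at Smoc2 the day 7 number was 1 below the untreated one. Celf2 had 28, 104, 60 and 30, Sox5 had 46, 90, 52 and 44, and Creb5 had 37, 99, 76 and 39. Rbms3 had 48, 164, 102 and 63, Cacna1c had 40, 89, 54 and 43, and Ltbp1 had 34, 91, 45 and 30.

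**Figure D2:**
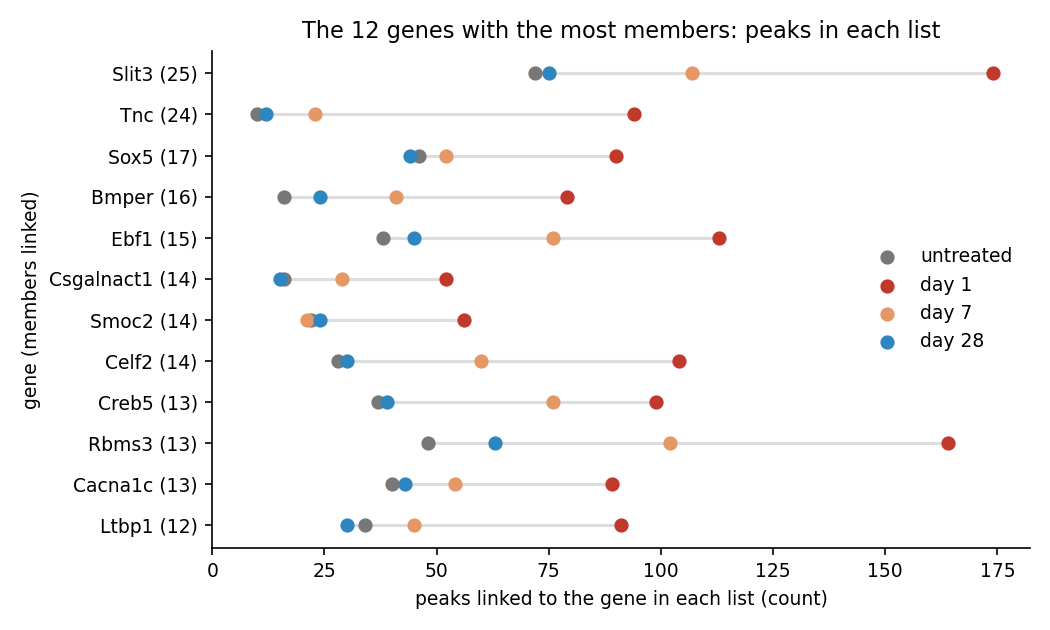
Peaks linked to each of the 12 genes with the most members (x axis, count of peaks) in the untreated, day 1, day 7 and day 28 lists, with the number of members in brackets. Day 1 lies farthest to the right at every gene, and at Tnc the counts are 10, 94, 23 and 12.

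Tnc stood out by how much of the gene was covered. The gene lies on the minus strand at chr4:63959785-64047015 and spans 87.2 kb. Peaks covered 1.00% of this span before treatment and 58.7% at day 1, then 2.46% and 1.41% at days 7 and 28, and numbered 4, 75, 6 and 5. Of its 24 members 23 lay inside the gene, and the remaining one, chr4:64075176-64075539, was 28.3 kb before the start. Their folds were low, from 6.15 to 12.4 with a median of 7.01, and the widest, chr4:64042106-64044725, measured 2620 bp. This was the highest of the 24 and the widest of all members. The tallest day 1 peaks of the locus were not members, since other lists shared them: within 50 kb before the start to 20 kb past the gene the highest fold of each list was 9.06 (untreated), 83.5 (day 1), 44.1 (day 7) and 17.9 (day 28). The members of Tnc thus formed a broad, low stretch along the gene body beside tall shared peaks.

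**Figure D3:**
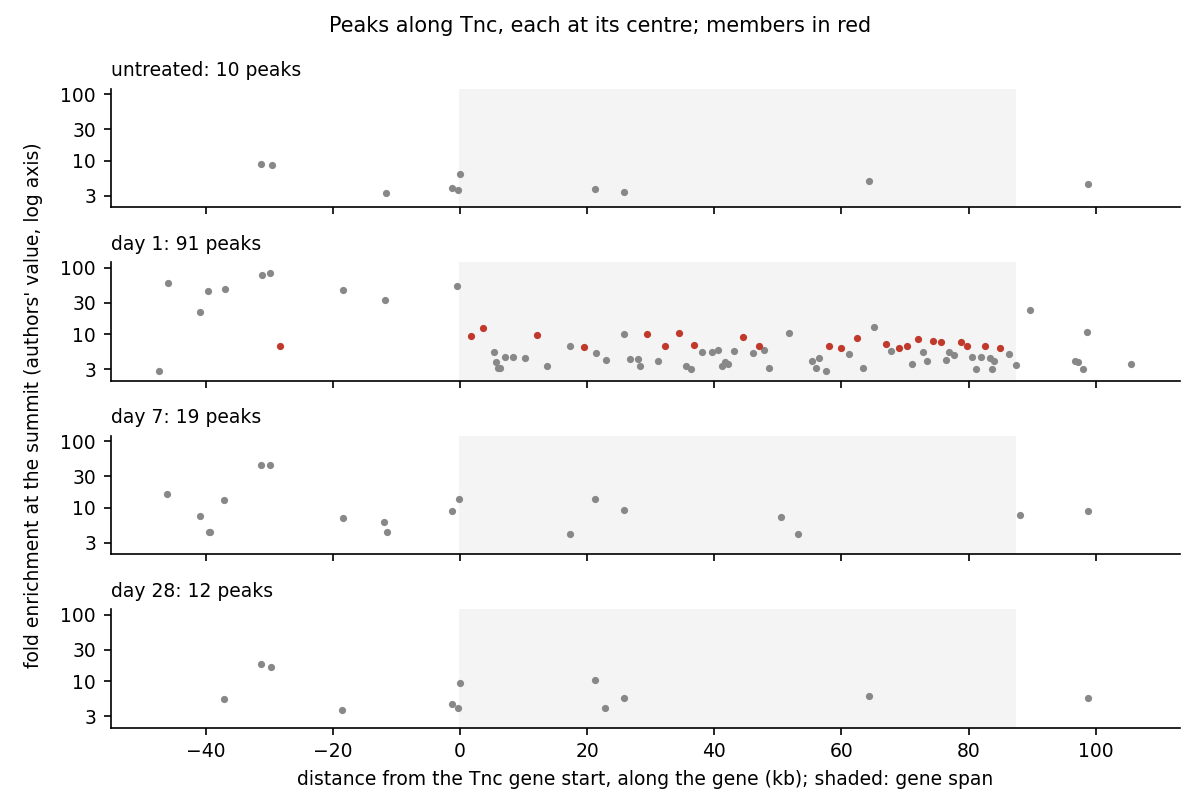
Fold enrichment at the summit (y axis, log scale) of each peak around Tnc against its distance along the gene from the gene start (x axis, kb), 1 panel for each list, members in red and the gene span shaded. At day 1 the window holds 91 peaks against 10, 19 and 12 in the untreated, day 7 and day 28 lists, and the red points fill the gene span at folds of 6.15 to 12.4.

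Other long runs were sparser. The 24 Tnc members formed the run with the most members, over 114 kb. A run of 19 members stretched over 281 kb of Slit3, where peaks covered 5.24% of the sequence before treatment and 20.1%, 7.92% and 6.24% at days 1, 7 and 28. At Dact2 and Smoc2 a run of 15 members took 178 kb, and at Cd101 and Ptgfrn a run of 13 took 111.3 kb. Chst11 with Slc41a2 and Spred1, an inhibitor gene of RAS-MAPK signalling, each had a run of 12. At Bmper, in a run of 11, peaks covered 0.557%, 7.71%, 1.24% and 0.811% of 178 kb. A further run of 11 members over 209 kb of chromosome 5 held the neutrophil chemokine genes Cxcl1, Cxcl3, Cxcl5 and Cxcl15 with Rassf6, and the lists held 20, 51, 29 and 17 peaks there. Glis3 and Peli2 had runs of 11 as well.

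Genes of known function were read through 30 lists, comprising 544 genes, of which 220 had a member. Among all protein-coding genes 6.48% of the linked day 1 regions, 8442 of 130346, were members, and the median gene had 0. The share was higher in 12 lists, and the exact 95% interval lay above 6.48% in 1 list and below it in 2. Among 30 intervals at 95% a few can miss 6.48% through counting error alone. Regions of a gene are not replicates, and genes with more day 1 regions had more chances to hold a member, so shares of regions are given. Where a share is given without a named gene, that gene had the most members of its list. Such a choice tends to lower the share, so the lower value is description only.

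Of the matrix lists, that of glycoproteins had a share above the background and the others lay near it. Of the day 1 regions at matrix glycoprotein and crosslinker genes 74 of 779 were members, 9.50% (7.53 to 11.8), at 22 of 30 genes and with a median of 1.5 per gene. Tnc alone supplied 24, and without it the share was 7.30%, 50 of 685. Lama2, a laminin chain gene of basement membranes, had 11 members, with 5, 44, 22 and 11 linked peaks in time order. The fibrillin gene Fbn1 and the nidogen gene Nid2 had 4 each. Collagen genes had 55 of 731, 7.52% (5.72 to 9.68), at 16 of 21 genes with a median of 2 per gene. Col6a3 had 8, Col15a1 had 6, of which the highest reached 30.3 fold, Col4a2 had 5 and Col14a1 had 4. Genes of matrix proteases and their inhibitors had 30 of 423, 7.09% (4.84 to 9.97), at 12 of 24 genes, led by Adamts12 with 7, the gelatinase gene Mmp2 with 5, Adam12 with 4 and the protease inhibitor gene Serpine2 with 3.

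Fibroblast and stellate genes had 22 of 247, 8.91% (5.67 to 13.2), at 11 of 18 genes. The proteoglycan gene Dcn, the chemokine gene Cxcl12 and the podoplanin gene Pdpn had 3 each. Around Dcn the lists held 4, 23, 9 and 7 peaks in time order. The peaks linked to the fibroblast markers given earlier, 90, 160, 128 and 102, were likewise most numerous at day 1. The folds of their start peaks were not all highest there. The part of fibroblasts in the members at matrix and fibroblast genes was not tested. Genes of stromal transcription factors had 50 of 759, 6.59%, a share close to that of all genes, and without Ebf1 it was 5.401%. Zeb1, Meis1 and Ebf2 had 6 members each. Actin cytoskeleton and focal adhesion genes had 67 of 986, 6.80%, at 23 of 32 genes, with 9 at Lpp, 7 at Mrtfa, whose product couples actin to SRF, 6 at Palld and 5 at Cald1.

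**Figure D4:**
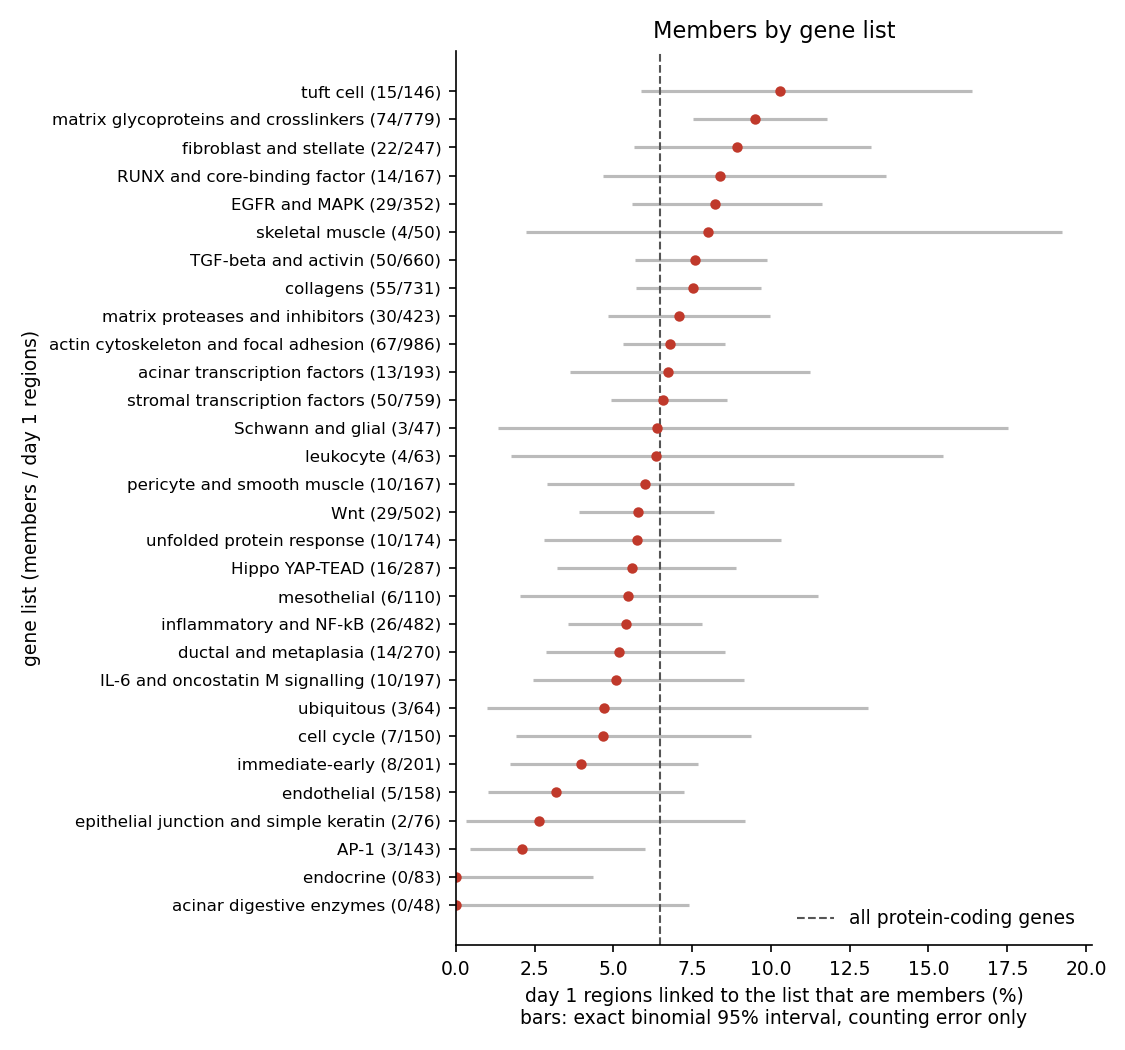
Share of linked day 1 regions that were members (x axis, percent) for each of the 30 gene lists, with exact binomial 95% intervals that cover counting error only and the share of all protein-coding genes, 6.48%, as a dashed line. Most intervals cross the line; matrix glycoproteins lie above it, and AP-1 and endocrine genes lie below it.

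Among signalling lists the shares lay on both sides of the background. TGF-beta and activin genes had 50 of 660, 7.58%, at 12 of 22 genes. Bmper, Ltbp1, Tgfbr3, a co-receptor gene with 7, and the inhibitor gene Smad7 with 3 led them, and without Bmper the share was 5.84%. EGFR and MAPK genes had 29 of 352, 8.24% (5.59 to 11.6), at 11 of 23 genes. Of these Spred1 had 6, the receptor gene Egfr 5, the ligand gene Nrg1 4 and the ERK phosphatase gene Dusp5 3, and around Spred1 the lists held 6, 40, 15 and 9 peaks. Wnt genes had 29 of 502, 5.78%, with 9 at the receptor gene Ror1, 5 at Tcf7l1 and 3 each at Wnt7b and Ror2. Hippo and YAP-TEAD genes had 16 of 287, 5.57%, with 4 at Amotl2, 3 each at Vgll4 and Vgll3 and 2 at Wwtr1, the TAZ gene.

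Inflammatory and NF-kB genes had 26 of 482, 5.39% (3.55 to 7.80), at 12 of 31 genes, while 48 of the 482, 9.96%, were regions of days 1 and 7 only with a day 1 fold of at least 6. Over all protein-coding genes 9190 of 130346 linked day 1 regions, 7.05%, were of that class. Il33 had 4 members and 9 regions of that class, with 7, 29, 25 and 12 peaks in time order. The macrophage growth factor gene Csf1 had 4 members, the receptor gene Il1r1 had 3 and Cxcl5 had 3. IL-6 and oncostatin M signalling genes had 10 of 197, 5.08%, of which 5 lay at the receptor gene Lifr and 2 at Osmr. Around Lifr the lists held 50, 28, 27 and 50 peaks, so its members appeared where the total was lower than in untreated epithelium.

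AP-1 genes, whose products bind the motif of that name, held few members. They had 3 of 143, 2.098% (0.435 to 6.01), 1 each at Fos, Jun and Batf3, and 16 of the 143, 11.2%, were strong regions of days 1 and 7 only, against 7.05% over all genes. Other immediate-early genes had 8 of 201, 3.98%, of which 2 lay at Ier5. The list of RUNX and core-binding factor genes had 14 of 167, 8.38% (4.66 to 13.7), at 4 of 5 genes: 8 at Runx2, the osteoblast factor gene, and 4 at Runx1t1. Runx1t1, with 33 of the 167 regions, was in the list but is not itself a RUNX or core-binding factor gene. Without Runx2 the share was 5.13%. Of 57 day 1 regions at Runx1 1 was a member and 10 were strong regions of days 1 and 7 only.

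Digestive enzyme genes had 0 members among 48 day 1 regions, for which the exact interval reaches 7.40%, and endocrine genes 0 of 83, up to 4.35%. The peaks linked to the 22 enzyme genes numbered 265, 59, 147 and 278 in time order. Acinar transcription factor genes had 13 of 193, 6.74%, all at Foxp1, with 9, and Mecom, with 4. Epithelial junction and simple keratin genes had 2 of 76, 2.63%, both at Grhl2. Ductal and metaplasia genes had 14 of 270, 5.19%, with 4 at the hyaluronan receptor gene Cd44 and 3 each at Anxa1 and the osteopontin gene Spp1. Tuft cell genes had 15 of 146, 10.3% (5.87 to 16.4), of which 9 lay at Dclk1 and 3 at Pou2f3, which encodes the factor that tuft cells require. Without Dclk1 the tuft cell share was 7.14%. Unfolded protein response genes had 10 of 174, 5.75%, with 3 at Creb3l2 and 2 at Creb3l1, and cell cycle genes had 7 of 150, 4.67%, with 3 at E2f3 and 2 at Cdk6.

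Lists for further cell types had few day 1 regions, and most of their shares of members lay near or below the 6.48% of all genes. Pericyte and smooth muscle genes had 10 of 167, 5.99%, with 3 at Lmod1 and 2 at Synpo2. Mesothelial genes had 6 of 110, 5.45%, with 3 at Bnc2 and 2 at Upk1b, and Schwann and glial genes had 3 of 47, 6.38%, of which 2 lay at Ngfr. Leukocyte genes had 4 of 63, 6.35%, of which 2 lay at Csf1r, the receptor gene of macrophages, while 12 of the 63, 19.05%, were strong regions of days 1 and 7 only, against 7.05% over all genes. Endothelial genes had 5 of 158, 3.16%, with 2 at Cdh5, and 18, 11.4%, were strong regions of days 1 and 7 only. Skeletal muscle genes had 4 of 50, 8.0%, of which 2 lay at Acta1, and ubiquitous genes 3 of 64, 4.69%, of which 2 lay at Ywhaz.

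Promoters were rarely members. RefSeq promoter windows (250 bases before to 50 after a start) numbered 32619 on chromosomes 1 to 17, 19 and X, chromosome 18 with its 419 members not being analysed here for promoters or miRNA hairpins, and members overlapped 103 of them, 0.316%, through 97 regions. Windows of protein-coding genes made up 37 of the 103, and the rest belonged to 62 other genes. They made up 21045 of all 32619 windows and 13619 of the 17198 overlapped by any day 1 region. Among the 230 windows overlapped by regions of days 1 and 7 they numbered 103. The strongest was Cavin4, a caveola gene of muscle, with a fold of 25.4, followed by Tm4sf19 at 21.3, 4930413E15Rik at 19.7, Gm42310 at 19.5, Gm42294 at 18.6, Gm44812 at 18.1 and Gm52636 at 17.3. Tfpi, which encodes an inhibitor of the tissue factor coagulation pathway, and Gm40948 followed at 16.2, then Gm34799 at 15.3, Gm46608 at 15.1 and Gm34483 at 14.7. The median GC content of the 103 windows was 48.0%, against 53.0% in all windows and 60.3% in the 17198 windows overlapped by any day 1 region.

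Motifs were searched in these windows on both strands as fixed letters, and a match is a description of sequence. The AP-1 motif TGANTCA occurred in 24 of 103 windows, 23.3%, against 7.85% of all windows, 6.40% of windows overlapped by any day 1 region and 46 of the 230 windows overlapped by regions of days 1 and 7. In 21 of the 24 the match lay inside the member itself. Since these windows are poorer in GC, windows below 53.0% GC were compared alone, where AP-1 stood at 25.6% for members, 11.0% for all windows, 12.9% for day 1 windows and 25.2% for those of days 1 and 7. The RUNX motif TGTGGTT occurred in 13 windows, 12.6%, against 5.29% of all windows and 6.52% for days 1 and 7, and below 53.0% GC in 13.4% against 7.35%. Regions on both sides of a start can share a window, and windows of a gene with several starts can overlap, so the 103 are not independent. A smaller share of the members' windows than of all windows belonged to protein-coding genes. Whether that difference bears on the motif shares was not tested.

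Motifs rich in G and C were sparse. The GC box GGGCGG occurred in 10.7% of the members' windows, against 35.9% of all windows and 59.4% of day 1 windows, and the ETS motif CCGGAAG in 1.94% against 8.92% and 14.7%. Below 53.0% GC the GC box stood at 6.10% for members, 8.09% for all windows, 18.7% for day 1 windows and 12.2% for those of days 1 and 7. The TATA box TATAAA was at 18.4% against 13.7%, the E-box CANNTG at 83.5% against 72.3% and the GATA motif AGATAA at 14.6% against 11.2%. Close to the level of all windows were TEAD CATTCC (13.6% and 14.6%), STAT TTCNNNGAA (7.77% and 8.34%), CEBP TTGCNNAA (9.71% and 10.9%), the CCAAT box (33.98% and 37.6%) and SRF (4.85% and 4.55%). NF-kB matched 1 window, 0.971% against 1.64%.

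**Figure D5:**
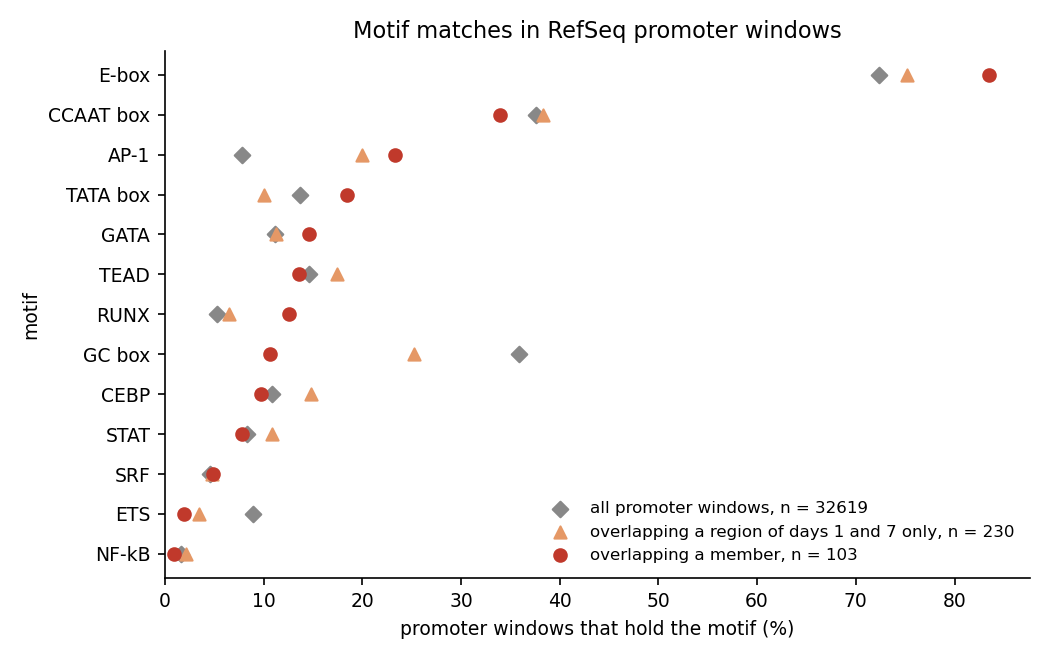
Share of RefSeq promoter windows that hold each motif (x axis, percent) among the 103 windows overlapped by a member, the 230 overlapped by a region of days 1 and 7, and all 32619 windows. AP-1 is at 23.3% for members against 7.85% for all windows, and the GC box at 10.7% against 35.9%.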

How the data were processed

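ATAC-seq peak lists of 4 libraries (1 each of untreated, day 1, day 7 and day 28) in the narrowPeak layout were used. MACS2 2.1.0.20150731, Bowtie2 2.2.6, deepTools, cutadapt and SAMtools and the build GRCm38 (mm10) are named in the submitters' processing notes; their options, read filters and cut-site shifts were not given. Summit fold enrichment, the ratio of pileup plus 1 to background plus 1, was deposited by the authors. The −log10 p and −log10 q are the authors' values for the same enrichment, and the authors' score was 10 times the −log10 q in 100% of peaks. Read totals were not given. Pileups were recovered as whole numbers (tolerance 0.05) in 100% of peaks from a single background per list.

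Peaks were joined in Python 3.11.15 (pandas 2.3.3, scipy 1.17.1); bedtools 2.31.1 gave the same 10839 members, and the scripts were tested on simulated peaks. A summit was assigned to the closest protein-coding gene within 50 kb (RefSeq, GRCm38.p6, the build of the files). Starts came with strand for 17274 of 21631 genes, and either gene end was used for the others. The miRNA and promoter sequences are RefSeq's. With 1 library per group nothing was tested; shares carry Clopper-Pearson 95% intervals. The members, gene lists and motifs were chosen with earlier results of these data known. Genes were named by rule: the 25 highest-fold members with a gene, the 12 genes with most members, up to 4 genes with at least 2 members per list, the 12 highest-fold members on promoters and the regions next to the threshold; others are said to be picked later or complete a count. The values of 1 gene that the rule names are not reported here. Alternatives were other fold thresholds, definitions of absence, link distances and lists left out.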

Additional observations from a re-analysis of the deposited data

Results flagged for a closer look

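Chromosome Y was outside the rule for members. The day 1 list held 11 regions there, against 9, 7 and 6 in the untreated, day 7 and day 28 lists, and 1 of them had a peak at day 1 alone with a fold of 6.30, at chrY:1115483-1115920. It was singled out because it lies in data that the comparisons above do not use.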

How the results depend on the processing

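No paired analysis was possible because each group was 1 library. The fold threshold and the day 7 list moved the counts most. Members numbered 16401, 6163 and 3573 at lowest folds of 5, 8 and 10 and 22816 without the day 7 list, against 10839. Linked genes numbered 1971 at a fold of 10 and 6880 without the day 7 list, against 4425, and members at list genes 337 at a fold of 8, 198 at 10 and 1250 without the day 7 list, against 578. The share within 1 kb of a start was 1.91% at a fold of 5, 1.201% at 8, 1.04% with no other peak within 500 bp, 1.94% without the day 7 list and 5.06% for 2.5 kb. The share inside genes was 49.96% at a fold of 10 and 49.8% without the day 7 list. The counts follow from fewer or more regions passing and the 5.06% from the wider window; for the other shares the cause was not tested. Members stayed within 1.5 times of the main count, at 8935, 10934, 11381 and 11308, with a 500 bp gap, with overlaps counted from a 50% share, without the untreated list and without the day 28 list. Scaling each fold by the libraries' enrichment left 10839, but with a threshold of 6 no member could fail that rule. Linked genes numbered 3664 within 10 kb and 4660 within 100 kb. The AP-1 share of promoter windows ran from 19.4% to 24.4% over its alternatives. Of 330 counts for single lists, 226 were within 1.5 times, and 59 of the other 104 came from fold thresholds. With 1 library per group, neither spread between animals nor the detection limit of each list could be separated from a true absence.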

Other observations

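Some runs of members had no protein-coding gene within reach. A run of 11 members took 211 kb of chromosome 1 (chr1:71760300-71970941), with 11, 50, 26 and 15 peaks in the untreated, day 1, day 7 and day 28 lists, and a run of 11 took 241 kb of chromosome 13 with 27, 47, 26 and 25 peaks. On chromosome 18 a run of 10 members took 147 kb at Lama3, a laminin chain gene of epithelia, and Ttc39c, and its highest fold was 31.8. Members made up between 5.38% of the day 1 regions on chromosome 7 and 8.83% on chromosome X.

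Gene coverage was ranked after the values at Tnc had been seen. Among 4941 genes of at least 50 kb Tnc was rank 3 by the share of its span under day 1 peaks, 58.7%, after Sfi1 with 89.2% and Pmepa1 with 59.8%. Those genes were covered to 96.1% and 41.1% in the untreated list already, against 1.00% at Tnc. The median gene of this length was covered to 2.27%, 3.31%, 2.65% and 2.35% in time order.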
